A study of Mus musculus with 18 samples.

Results

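The genes followed here encode the enzymes and cofactors that write, copy and erase DNA methylation in mouse embryonic stem (ES) cells: Dnmt1, Dnmt3a, Dnmt3b, Dnmt3l, Uhrf1, Uhrf2, Tet1, Tet2, Tet3 and Tdg. They were taken by Ensembl identifier, 10 of the 49671 genes in the count table, and their expression was compared between 6 groups of RNA sequencing libraries. Wild-type E14 ES cells of passage 20, kept until then in 2i/Lif, were grown for 48 h in Matrigel, a basement membrane hydrogel, in N2B27 medium. They received DMSO, the solvent control, 3 µM CHIR99021 (CH, an inhibitor of Gsk3 that stabilises β-catenin), CH together with 0.4 µM of the Mek inhibitor PD0325901 (2i), or 12 ng/ml Fgf2 with 20 ng/ml Activin A (Fgf2/Activin). In a second experiment, Esrrb fl/fl ES cells of passage 25 that express a tamoxifen-inducible Cre were exposed to 4OHT for 1 day (Esrrb delta/delta) or left without it (Esrrb fl/fl), and both were then grown in Matrigel with 3 µM CH for 24 h. Each experiment used 1 cell line, each group had 3 libraries, and no label says that these came from separate cultures, so the p-values measure the spread between these libraries, which may be technical.

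DNA methylation in mammals is found mostly on the cytosine of CG dinucleotides (CpG). Dnmt3a and Dnmt3b place it on unmethylated DNA (de novo methylation) with Dnmt3l, a partner without catalytic activity of its own. After replication Uhrf1 binds hemimethylated CpG sites and brings in Dnmt1, which copies the mark to the new strand, and Uhrf2 is the paralogue of Uhrf1. Tet1, Tet2 and Tet3 oxidise 5-methylcytosine, and Tdg, a thymine DNA glycosylase, cuts out the more oxidised forms so that base excision repair can restore cytosine. ES cells in 2i are known for low genome-wide methylation, and the epiblast gains methylation around implantation. DNA methylation itself was not measured in these libraries.

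The genes lie on GRCm38 at chr9:20907209-20959888 (Dnmt1, minus strand), chr12:3806007-3914443 (Dnmt3a, plus), chr2:153649450-153687730 (Dnmt3b, plus), chr10:78041947-78063622 (Dnmt3l, plus), chr17:56303321-56323486 (Uhrf1, plus), chr19:30030513-30093722 (Uhrf2, plus), chr10:62804570-62908996 (Tet1, minus), chr3:133463679-133545139 (Tet2, minus), chr6:83362373-83459084 (Tet3, minus) and chr10:82629828-82650799 (Tdg, plus). RefSeq promoters of GRCm38.p6 were matched to all 10 genes, in 17 windows that each hold the 250 bases before a transcription start. CpG is the substrate of these enzymes, and the upstream windows differ widely in it. Over all 32851 windows the median was 6 CpG dinucleotides and the upper quartile 16. The single Tet2 window held 51, more than 99.9% of all windows, and the windows of Dnmt3b, Uhrf2, Tdg, Tet3 and Tet1 held 21, 23, 19, 17 and 15. The 3 windows of Dnmt3l held 3 to 5. The windows of Dnmt3b and Uhrf2 are shown because these genes are the most abundant gene that fell and the most tightly measured gene that rose in CH, and because both windows lie just upstream of the gene as annotated. They read 5′ to 3′ on the plus strand, with each CG in capitals.
Dnmt3b, chr2:153649199-153649448: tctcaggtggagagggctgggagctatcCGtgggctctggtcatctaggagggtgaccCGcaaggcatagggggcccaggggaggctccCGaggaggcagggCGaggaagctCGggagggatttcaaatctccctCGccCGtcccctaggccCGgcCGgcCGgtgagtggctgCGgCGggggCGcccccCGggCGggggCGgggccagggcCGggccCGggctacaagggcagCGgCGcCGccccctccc
Uhrf2, chr19:30030263-30030512: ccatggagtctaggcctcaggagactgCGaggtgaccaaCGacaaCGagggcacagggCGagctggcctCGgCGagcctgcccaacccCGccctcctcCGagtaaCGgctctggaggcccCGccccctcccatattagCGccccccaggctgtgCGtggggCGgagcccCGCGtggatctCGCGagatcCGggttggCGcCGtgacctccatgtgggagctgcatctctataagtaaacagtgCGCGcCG

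Motifs of 5 kinds were searched on both strands of the 17 windows. The letters GCGCGAAA, the core of a site for E2F factors, which drive genes of DNA replication, were present in 84 of the 32851 windows (0.256%). Among the 10 genes they stood in 1 window of Dnmt1 and 1 of Uhrf1, the pair that copies methylation at replication. The 30 bases around each are printed with the core in capitals, on the minus strand of chr9:20952824-20952853 for Dnmt1 and on the plus strand of chr17:56304117-56304146 for Uhrf1, where the core reads as its reverse complement.
Dnmt1: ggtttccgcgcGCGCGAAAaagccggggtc
Uhrf1: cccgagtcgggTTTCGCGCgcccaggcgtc
The oestrogen-related receptor half-site AAGGTCA, bound by Esrrb, was in 0 of the 17 windows and in 4.08% of all windows. The TCF/LEF core CTTTGA was in 1 (Dnmt1) against 13.8% of all windows, the OTX core TAATCC in 1 (Tdg) against 6.25%, and the E-box CACGTG in 3 (Dnmt3a, Dnmt3l and Tdg) against 6.02%. A match describes letters in a window and is not evidence of binding, and sites elsewhere in these genes were not searched.

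The libraries held 25388139 to 37158661 counts in the E14 cultures and 19915222 to 20140699 in the Esrrb experiment, and all 10 genes passed the filter on low counts in both. In every group the library numbered 1 stood apart. Between replicates 2 and 3 the chi-square of the counts per gene, which is near 1 for counting noise alone, was 1.46 to 8.57, and between replicate 1 and either of the others it was 11.8 to 65.9. Calls of the 10 genes that rest on replicate 1 are therefore given with and without it. Naive pluripotency markers, 8 genes including Nanog, summed to 72.9 to 210 CPM (counts scaled to a common library total) in DMSO and 1471 to 1660 CPM in CH, and the 5 formative epiblast markers to 322 to 618 CPM and 16.5 to 56.9 CPM. Nanog was at 67.9, 5.92 and 2.78 CPM in the 3 DMSO libraries, so DMSO replicate 1 was the one nearest to the naive cultures. The formative markers Otx2 and Fgf5 averaged 188 and 46.8 CPM in DMSO and 21.2 and 0.359 CPM in CH. The 4 mesendoderm markers summed to 8.86 to 13.8 CPM in DMSO, 441 to 671 CPM in CH and 83.4 to 118 CPM in 2i, the 3 trophoblast markers to 8.41 to 20.8, 45.7 to 94.7 and 10.97 to 14.04 CPM, and the 3 markers of primordial germ cells to 11.3 to 20.7, 58 to 82.6 and 46.4 to 90.4 CPM. A sum follows its most abundant gene, and the lists did not move as a whole. The lists also share genes with the network list used below: Dppa3 is a germ cell marker and Prdm14 a naive marker here, and both return there as repressors of methylation. By the limits given below, 2 of 3 mesendoderm markers tested were called higher and 1 lower in CH against DMSO. Of the trophoblast markers 1 of 2 tested was called higher, and of the germ cell markers 1 of 3. Markers of ES cells were present in every library, at summed levels of 1282 to 2200 CPM. The part of other cell types in the results below was not tested, and in bulk libraries fewer cells of a type and less RNA per cell cannot be told apart.

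**Figure D1:**
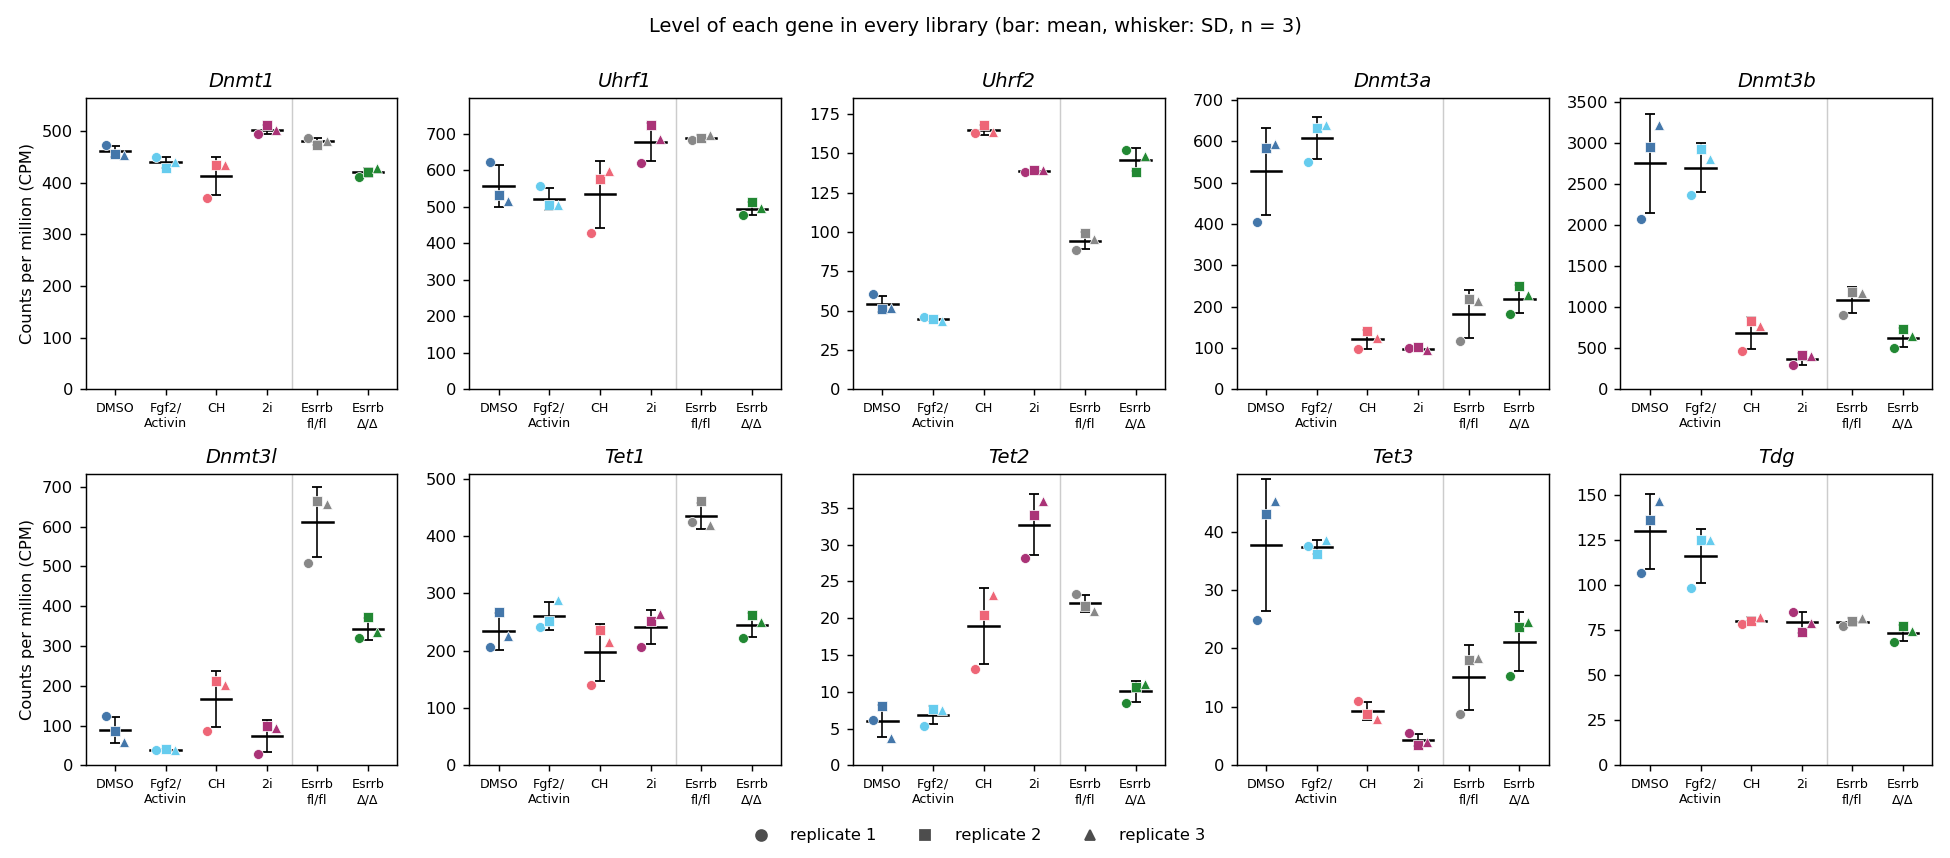
Level of the 10 genes in CPM (vertical axis, linear, from 0) in each library of the 6 groups (horizontal axis); the symbol gives the replicate number, the bar the mean and the whisker the SD of 3. Dnmt3a, Dnmt3b and Tet3 were high in DMSO and Fgf2/Activin and low in CH and 2i, Uhrf2 and Tet2 showed the opposite order, and the grey line separates the 2 experiments, which differ in cell line, passage and time in 3D culture.

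The de novo enzymes were expressed at the highest level in the cultures without CH. Dnmt3b stood at 2074, 2955 and 3221 CPM in DMSO, 2362, 2931 and 2799 CPM in Fgf2/Activin, 467, 835 and 766 CPM in CH and 292, 425 and 411 CPM in 2i. Dnmt3a stood at 406, 585 and 592 CPM in DMSO, 551, 633 and 640 CPM in Fgf2/Activin, 96.7, 142 and 125 CPM in CH and 99.7, 102 and 95.1 CPM in 2i. For both genes every library without CH lay above every library with it, and replicate 1 was the lowest of its group in DMSO, Fgf2/Activin and CH. Dnmt3l, the regulatory partner, did not follow them. It stood at 125, 85.4 and 59.9 CPM in DMSO, 86.5, 212 and 201 CPM in CH, 28.8, 98.9 and 94.4 CPM in 2i, and 38.5, 41.2 and 38.9 CPM in Fgf2/Activin. CH and DMSO overlapped for Dnmt3l through replicate 1, which was the lowest CH library and the highest DMSO library, while the Fgf2/Activin libraries lay close together.

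The TET genes split in the same way. Tet3 stood at 24.8, 43.1 and 45.3 CPM in DMSO, 37.5, 36.1 and 38.5 CPM in Fgf2/Activin, 11.03, 8.76 and 8 CPM in CH and 5.57, 3.54 and 4.00 CPM in 2i. Tet2 ran the other way, with 6.22, 8.14 and 3.78 CPM in DMSO, 5.41, 7.62 and 7.51 CPM in Fgf2/Activin, 13.2, 20.5 and 23.1 CPM in CH and 28.1, 34.1 and 35.97 CPM in 2i. The lowest CH library was above the highest DMSO library for Tet2 and the highest CH library below the lowest DMSO library for Tet3. Tet1, the most abundant TET gene, stood at 207, 268 and 226 CPM in DMSO, 141, 237 and 215 CPM in CH, 207, 252 and 264 CPM in 2i and 241, 252 and 289 CPM in Fgf2/Activin, and its groups overlapped apart from CH and Fgf2/Activin.

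Of the maintenance genes Dnmt1 and Uhrf1 and the paralogue Uhrf2, only Uhrf2 separated the cultures with CH from those without by more than 1 on the log2 scale. Uhrf2 stood at 60.5, 50.8 and 51.6 CPM in DMSO, 46.1, 44.7 and 43.2 CPM in Fgf2/Activin, 163, 168 and 163 CPM in CH and 138.5, 139.2 and 139.4 CPM in 2i. The 4 cultures did not overlap for this gene. Dnmt1 ranged from 370 CPM (CH replicate 1) to 513 CPM (2i replicate 2) over the 12 E14 libraries, and Uhrf1 from 429 CPM (CH replicate 1) to 724 CPM (2i replicate 2). Tdg was at 107, 136 and 147 CPM in DMSO, 98.6, 125 and 125 CPM in Fgf2/Activin, 78.6, 79.9 and 82.6 CPM in CH and 85.4, 73.8 and 79.1 CPM in 2i, again higher in every library without CH. Tdg shares 95.2% of its longest transcript with 5 other annotated genes, among them the pseudogenes Gm9855 and Tdg-ps, whose counts reached 26.7% and 14.6% of those of Tdg, so the split of reads between them is uncertain.

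The comparison of CH with DMSO asks how these genes differ between cells kept with the Gsk3 inhibitor and cells released from it. The cells had been in 2i/Lif, which contains CH, and no library of the starting cells is among those analysed. A fall or rise in CH or 2i is therefore a difference from the culture compared, and which of the cultures moved cannot be told. A gene was called when its edgeR quasi-likelihood test had an adjusted p under 0.01 and its fold change was past 1 on the log2 scale, in a fit over the 12 E14 libraries. In CH 2 of the 10 genes were past both limits upwards and 3 downwards, where 7.51% of the 16413 genes tested were called higher and 10.2% lower. The median log2 fold change was -0.20 over the 10 genes and -0.002 over all genes. Dnmt3a fell by 2.12 on the log2 scale (SE 0.16, adjusted p = 2.8e-06), Dnmt3b fell by 2.00 (SE 0.24, adjusted p = 5.85e-05) and Tet3 fell by 2.02 (SE 0.24, adjusted p = 5.34e-05). Uhrf2 rose by 1.60 (SE 0.07, adjusted p = 6.94e-08) and Tet2 by 1.64 (SE 0.28, adjusted p = 0.000758).

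The remaining 5 genes were not called in CH against DMSO. Tdg was lower by 0.69 on the log2 scale (SE 0.12, adjusted p = 0.00105), within the fold limit. Dnmt1 and Uhrf1 had log2 fold changes of -0.16 and -0.06, with 95% intervals of -0.30 to -0.02 and -0.32 to 0.21, and Tet1 had -0.24, with an interval of -0.63 to 0.14. Dnmt3l had a log2 fold change of 0.89 (SE 0.44, adjusted p = 0.132). Its value turned on the libraries numbered 1: with those left out of every group, a choice made after the data were seen, Dnmt3l was higher in CH by 1.51 (SE 0.11, adjusted p = 1.29e-08), and the other 5 calls stood. Uhrf1 was then higher in CH by 0.171 (SE 0.042, adjusted p = 0.00271), within the fold limit. Such fits keep only replicates 2 and 3 of each group, which lay closer to each other than to replicate 1. Their small SE and adjusted p, here and below, measure the spread between those libraries alone. They are not stronger evidence than the fit with all libraries.

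**Figure D2:**
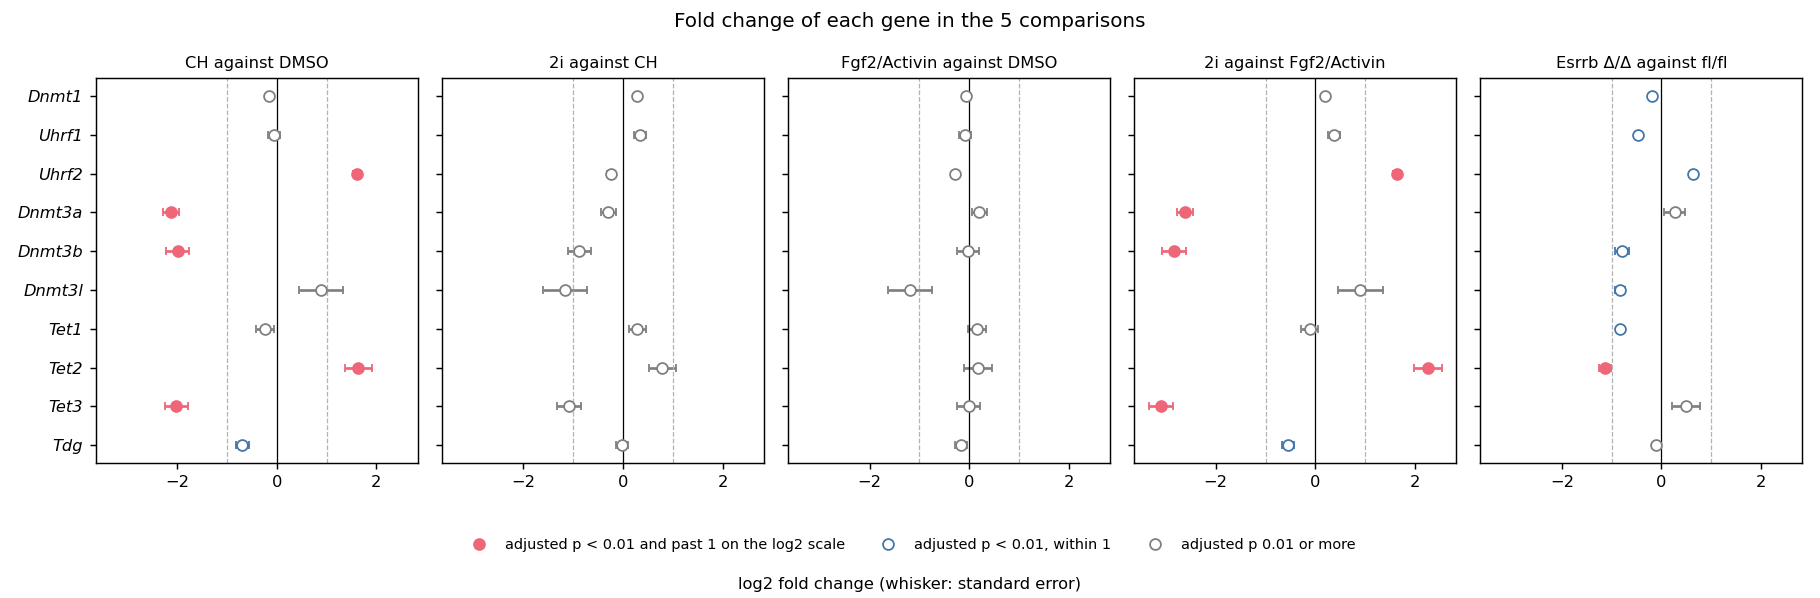
log2 fold change of each gene (horizontal axis) with its standard error in the 5 comparisons; filled red points passed the test and the fold limit, open blue points the test alone, and the dashed lines mark 1 and -1. Dnmt3a, Dnmt3b and Tet3 lie to the left and Uhrf2 and Tet2 to the right where CH or 2i is compared with a culture without CH, none passed in 2i against CH or Fgf2/Activin against DMSO, and in the Esrrb experiment Tet2 alone was called.

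Adding the Mek inhibitor to CH moved no gene past both thresholds. By edgeR 0 of the 10 genes were called higher and 0 lower in 2i against CH, where 0.317% and 1.67% of all genes were. At an unadjusted p under 0.05, 3 were higher and 4 lower. The share of all genes at that limit was not counted, here or in the comparisons below, so such counts have no base rate. DESeq2 called 1 lower, Tet3, where it called 496 of 29782 genes lower. Tet3 had a log2 fold change of -1.09 (SE 0.24, adjusted p = 0.0195) and Dnmt3b of -0.88 (SE 0.23, adjusted p = 0.0426). The groups did not overlap for either gene, and both values lay in the same direction as the difference of CH from DMSO. With a replicate block in the fit, Dnmt3b had an adjusted p of 0.000117 and that of Dnmt1, which was higher in 2i by 0.29, was 0.00792. Tet2 had a log2 fold change of 0.79 (SE 0.27, adjusted p = 0.117) and Dnmt3l of -1.17 (SE 0.45, adjusted p = 0.166). Without the libraries numbered 1, 2 genes were called lower in 2i, Dnmt3l (-1.09, adjusted p = 2.61e-06) and Tet3 (-1.16, adjusted p = 3.14e-06), and without CH replicate 1 alone Dnmt3b was called (-1.09, adjusted p = 0.00903). Among all genes, 554 of 16428 and 221 of 16765 were called lower in these 2 fits. Without the libraries numbered 1, Dnmt3b (-0.937, adjusted p = 1.49e-08), Dnmt3a (-0.438, 4.71e-05) and Uhrf2 (-0.25, 0.000548) were lower within the fold limit. Tet2 (0.688, adjusted p = 0.00519), Uhrf1 (0.267, 0.00028) and Dnmt1 (0.225, 0.000527) were higher within it. Tet1 and Tdg did not pass the p threshold there.

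Fgf2/Activin, which drives ES cells towards an epiblast-like state, was compared with DMSO, in which the cells were merely released from 2i. By edgeR 0 of the 10 genes were called higher and 0 lower, against 0.902% and 0.347% of all genes, 0 and 2 had an unadjusted p under 0.05, and DESeq2 called 0. The 95% intervals of the log2 fold change were -0.14 to 0.55 for Dnmt3a, -0.53 to 0.47 for Dnmt3b and -0.50 to 0.48 for Tet3, so a change of 1 in either direction lay outside them. The 2 genes with the low unadjusted p were Uhrf2, with a log2 fold change of -0.28 (SE 0.07, adjusted p = 0.0493), and Dnmt3l, with -1.19 (SE 0.45, adjusted p = 0.199). Both had every Fgf2/Activin library below every DMSO library. Without the libraries numbered 1 the values were -0.215 (adjusted p = 0.00492) and -0.86 (adjusted p = 7.34e-05), past the p threshold and within the fold limit.

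In 2i against Fgf2/Activin, the cultures at the naive and the epiblast-like end, 2 genes were called higher in 2i and 3 lower, against 9.13% and 14.4% of all genes. This comparison shares no library with that of CH and DMSO, whereas each of the other E14 comparisons shares a group with both, so their values are given side by side only. Tet3 fell by 3.10 on the log2 scale (SE 0.25, adjusted p = 2.12e-06), Dnmt3b by 2.84 (SE 0.24, adjusted p = 3.39e-06) and Dnmt3a by 2.62 (SE 0.17, adjusted p = 3.79e-07). Tet2 rose by 2.26 (SE 0.28, adjusted p = 6.11e-05) and Uhrf2 by 1.64 (SE 0.07, adjusted p = 3.83e-08). Tdg was lower by 0.55 (SE 0.12, adjusted p = 0.0034). Dnmt1, Uhrf1 and Tet1 had log2 fold changes of 0.19, 0.38 and -0.11 and were not called. Without the libraries numbered 1, Dnmt1 (0.228, adjusted p = 9.96e-05) and Uhrf1 (0.487, adjusted p = 1.03e-07) passed the p threshold within the fold limit. Tet1 did not (-0.063, adjusted p = 0.475). Dnmt3l had 0.91 (SE 0.45, adjusted p = 0.114) and, without the libraries numbered 1, was called at 1.28 (adjusted p = 1.04e-07).

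Put in order over the 4 E14 cultures, 6 genes had 1 gap between neighbours at which the adjusted p was under 0.01, and it lay at the same place, between the cultures with CH and those without it. These were Dnmt3a, Dnmt3b and Tet3 (DMSO and Fgf2/Activin above CH and 2i), Uhrf2 and Tet2 (CH and 2i above), and Tdg. For Dnmt1, Uhrf1, Tet1 and Dnmt3l no neighbours in the order differed by that measure, although the ends of the order did for Dnmt3l, which was higher in CH than in Fgf2/Activin by 2.07 (SE 0.46, adjusted p = 0.00374). With the replicate block, CH and 2i differed for Dnmt3b as well, and the ends of the order differed for Dnmt1 (2i and CH, adjusted p = 0.00792) and for Tet1 (Fgf2/Activin and CH, adjusted p = 0.00502, against 0.0851 without the block). The share of all genes with a single gap between the cultures with CH and those without was not counted. The count of 6 genes therefore has no base rate. Whatever the fold, 2246 of 16413 genes were higher and 2504 lower in CH against DMSO at an adjusted p under 0.01.

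Loss of Esrrb, a nuclear receptor downstream of β-catenin, was examined in cells that stayed in CH. No group received 4OHT without the deletion, so loss of Esrrb cannot be told apart from exposure to 4OHT and activation of Cre. Esrrb itself was at 142, 110 and 109 CPM in Esrrb fl/fl and at 58.9, 63.8 and 59.8 CPM after 4OHT, so its reads were reduced (-0.99 on the log2 scale, SE 0.10, adjusted p = 7.44e-05) and not absent, and whether the remaining reads come from transcripts without the deleted part cannot be read from gene counts. Of the 10 genes 0 were called higher and 1 lower, against 12.8% and 3.87% of the 14893 genes tested. At an adjusted p under 0.01 whatever the fold, 1 was higher and 6 were lower, against 24.6% and 19.9% of all genes. The median log2 fold change of the 10 genes was -0.34 and that of all genes 0.00.

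The erasers Tet1 and Tet2 were among those that fell in Esrrb delta/delta cells. Tet2 stood at 23.3, 21.7 and 21.0 CPM in Esrrb fl/fl and 8.42, 10.7 and 11.1 CPM in Esrrb delta/delta cells, a fall by 1.13 on the log2 scale (SE 0.12, adjusted p = 7.76e-05). This was the 1 call past the fold limit, and it stood just inside: without the libraries numbered 1 the value was -0.98 with an adjusted p of 1.51e-09. Tet1 stood at 425, 462 and 419 CPM and 223, 262 and 250 CPM, a log2 fold change of -0.83 (SE 0.07, adjusted p = 2.33e-05). Neither gene's groups overlapped. Tet3 went the other way, with 8.71, 18.1 and 18.4 CPM in Esrrb fl/fl and 15.3, 23.6 and 24.6 CPM after deletion (log2 fold change 0.49, SE 0.28, adjusted p = 0.157). Its groups overlapped through replicate 1, and with the replicate block its adjusted p was 0.000404.

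The writers and maintenance genes had log2 fold changes of under 1 in size when Esrrb was deleted. Dnmt3b stood at 907, 1182 and 1177 CPM in Esrrb fl/fl and 504, 732 and 646 CPM in Esrrb delta/delta cells (log2 fold change -0.80, SE 0.14, adjusted p = 0.0014). Dnmt3l stood at 509, 665 and 657 CPM and 319, 373 and 337 CPM (-0.83, SE 0.10, adjusted p = 0.000194). Both genes were lower in every library after deletion, whereas Dnmt3a, at 116, 218 and 213 CPM and 182, 249 and 227 CPM, overlapped (0.27, SE 0.22, adjusted p = 0.322, and 0.00483 with the replicate block). Uhrf1 was lower by 0.48 (SE 0.04, adjusted p = 4.09e-05) and Dnmt1 by 0.19 (SE 0.04, adjusted p = 0.00355). Uhrf2 was the 1 gene that rose at this threshold, from 88.9, 99.4 and 95.5 CPM to 152, 138 and 149 CPM (0.63, SE 0.06, adjusted p = 4.95e-05). Tdg had a log2 fold change of -0.12 (SE 0.06, adjusted p = 0.123). Markers of cell types and states moved with the deletion. The 4 ES cell markers summed to 2132 to 2200 CPM in Esrrb fl/fl and 1287 to 1353 CPM in Esrrb delta/delta cells, the 8 naive markers to 774 to 997 CPM and 413 to 448 CPM, and the 5 formative markers to 105 to 153 CPM and 45.1 to 99.8 CPM. The formative markers did not move together, with 1 called higher and 2 lower. The 4 mesendoderm markers summed to 52.8 to 76.0 CPM in Esrrb fl/fl and 336 to 489 CPM in Esrrb delta/delta cells, the 3 trophoblast markers to 6.98 to 10.3 CPM and 21.0 to 25.5 CPM, and the 4 fibroblast markers to 0.461 to 1.04 CPM and 4.55 to 6.38 CPM, with no marker of these lists without a count. Their part in the changes was not tested.

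Dnmt3b, Tet2 and Uhrf2 were the genes with an adjusted p under 0.01 both in the Esrrb comparison and in CH against DMSO. The Esrrb comparison gave Dnmt3b and Tet2 lower and Uhrf2 higher, with only Tet2 past the fold limit. CH against DMSO gave Dnmt3b lower, Tet2 higher and Uhrf2 higher, all past it. Dnmt1, Dnmt3l, Uhrf1 and Tet1 passed the p threshold in the Esrrb comparison alone, and Dnmt3a, Tet3 and Tdg in CH against DMSO alone. Dnmt3l averaged 611 CPM in Esrrb fl/fl and 167 CPM in E14 cells in CH, and Dnmt3b 1089 and 689 CPM. No test was made between the experiments, since line, passage and time in 3D culture differ together and cannot be told apart.

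Levels of different genes were compared per kilobase of exon (RPKM, the CPM divided by the exon length). In DMSO Dnmt3b led with 539 ± 118 RPKM (SD, n = 3), followed by Uhrf1 with 131 ± 13.4, Dnmt1 with 62.5 ± 1.45, Dnmt3a with 31.7 ± 6.34, Dnmt3l with 30.1 ± 10.9, Tdg with 24.2 ± 3.89, Tet1 with 15.1 ± 2.04, Uhrf2 with 6.32 ± 0.63, Tet3 with 2.26 ± 0.67 and Tet2 with 0.36 ± 0.13 RPKM. In 2i Uhrf1 led with 159 ± 12.3 RPKM, and Dnmt3b and Dnmt1 were close to each other, at 73.6 ± 14.3 and 68.2 ± 1.18 RPKM. The 3 DNMT3 genes together amounted to 600 ± 113 RPKM in DMSO, 578 ± 61.5 in Fgf2/Activin, 198 ± 62.8 in CH and 104 ± 27.4 in 2i. The TET genes together stayed between 14.4 ± 3.44 (CH) and 19.5 ± 1.71 RPKM (Fgf2/Activin) in the E14 cultures, and were at 30.4 ± 1.64 RPKM in Esrrb fl/fl and 17.7 ± 1.69 RPKM in Esrrb delta/delta cells.

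**Figure D3:**
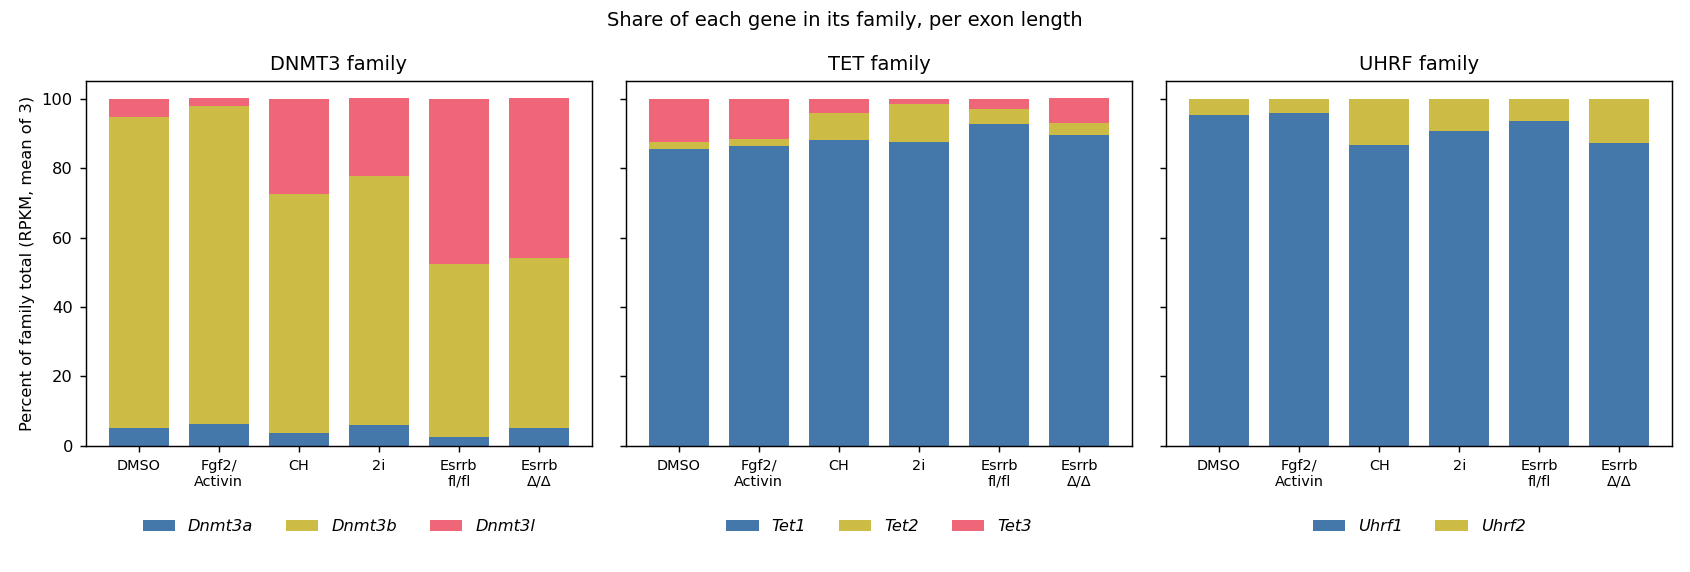
Percent of the summed RPKM of the DNMT3, TET and UHRF families (vertical axis, from 0 to 100) that each gene made up in the 6 groups, as means of 3 libraries. Dnmt3l took 27.4% of the DNMT3 family in CH and 2.30% in Fgf2/Activin, Tet1 85.4% to 92.7% of the TET family in every group, and Uhrf2 4.08% to 13.5% of the UHRF family.

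Within the families the mix of genes changed with the culture. Dnmt3b made up 89.3 ± 3.01% of the DNMT3 total in DMSO, 91.4 ± 0.38% in Fgf2/Activin, 68.8 ± 3.16% in CH and 71.6 ± 6.00% in 2i (SD, n = 3). Dnmt3l made up 5.40 ± 3.06%, 2.30 ± 0.20%, 27.4 ± 3.84% and 22.4 ± 7.90% of it in the same order. The share of Dnmt3a stayed between 3.82 ± 0.68% (CH) and 6.33 ± 0.23% (Fgf2/Activin), so Dnmt3l held the larger share of the 2 in CH and 2i and Dnmt3a in Fgf2/Activin. In DMSO, where Dnmt3a had 5.27 ± 0.17%, the 2 were not apart beyond their spread. In the Esrrb experiment Dnmt3b and Dnmt3l made up 49.8 ± 0.25% and 47.7 ± 0.26% before deletion and 48.8 ± 2.77% and 46.0 ± 2.94% after it. With the longest transcript as the length in place of all exons, Dnmt3l led Dnmt3b there, at 55.3% against 41.6% and 53.1% against 40.6%. Tet3 went from 12.6 ± 2.85% of the TET total in DMSO to 4.13 ± 1.85% in CH and 1.52 ± 0.57% in 2i, and Tet2 from 2.02 ± 0.65% to 7.75 ± 0.85% and 10.9 ± 0.07%. Tet2 was thus the second TET gene in CH and 2i and Tet3 in DMSO and Fgf2/Activin. Uhrf2 went from 4.62 ± 0.10% of the UHRF total in DMSO to 13.5 ± 2.08% in CH, and from 6.37 ± 0.30% to 12.8 ± 0.96% upon deletion of Esrrb. The size of these shares depends on the length used: with the longest transcript Uhrf2 made up 9.02% in DMSO and 24.1% in CH, and 12.2% and 23.1% before and after deletion, and Tet2 made up 3.24%, 12.3% and 17.2% of the TET total in DMSO, CH and 2i, in the same direction each time.

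A list of 79 other genes of the methylation network was examined by role, of which 77 were tested in the E14 fit and 75 in the Esrrb fit. In CH against DMSO 4 were called higher and 1 lower, 5 of 77 in all, where 7.51% of all genes were called higher and 10.2% lower, so calls were no more frequent in the list than among all genes. Both listed repressors of methylation were among them: Dppa3, a maternal factor that hinders Uhrf1, stood at 3.496, 3.04 and 2.08 CPM in DMSO and 43.6, 36.9 and 32.9 CPM in CH (log2 fold change 3.71, SE 0.33, adjusted p = 7.78e-06), and Prdm14, which represses Dnmt3 genes in naive cells, at 0.11, 0.22 and 0.23 CPM (4 to 7 counts) and 6.64, 7.03 and 10.3 CPM (5.44, SE 0.33, adjusted p = 5.45e-07). Zfp57, which protects imprinted regions from demethylation, rose by 1.61 (SE 0.25, adjusted p = 0.000404) and Gadd45a, a stress-response gene linked to demethylation, by 1.05 (SE 0.15, adjusted p = 0.000232), a call that was lost without CH replicate 3 or DMSO replicate 3. Gadd45g, of the same family, fell by 3.57 (SE 0.24, adjusted p = 1.11e-06). None of the 9 maintenance partners, 8 methyl-CpG binding proteins, 4 H3K36 methyltransferases or 6 TET partners was called with all libraries, but the H3K36 methyltransferase Nsd2 was called higher without CH replicate 3 (1.05, adjusted p = 0.0022), without DMSO replicate 1 (1.17, adjusted p = 0.000219) and without replicate 1 of every group (1.07). The count of genes called lower was 3 with the replicate block, with Gnmt and Wt1 added, 2 without CH replicate 1 and 2 without DMSO replicate 1. The median log2 fold change of the list was 0.01.

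**Figure D4:**
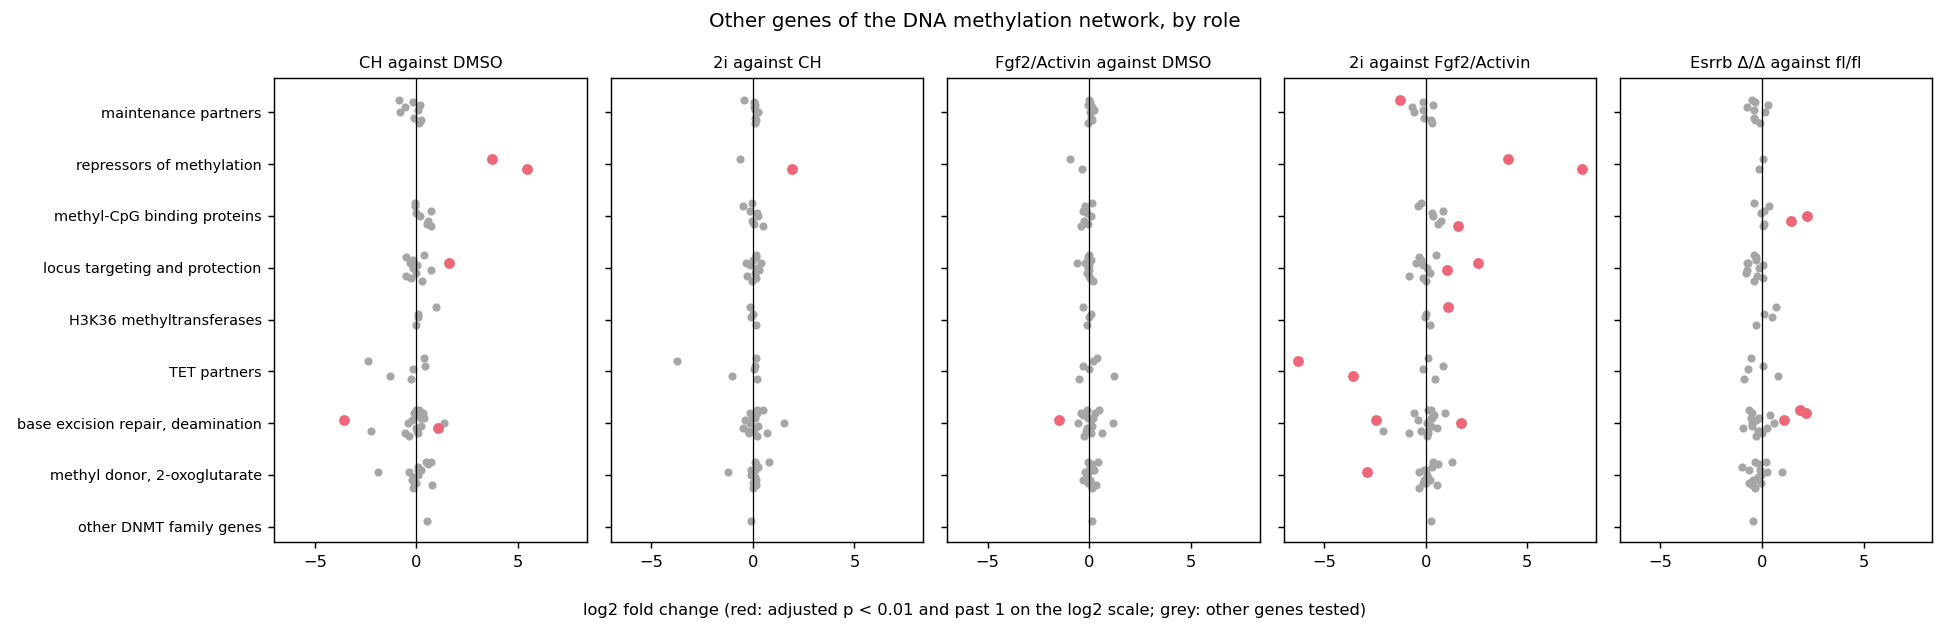
log2 fold change (horizontal axis) of the tested genes of the methylation network other than the 10 enzymes, in rows by role, for the 5 comparisons; red points passed the test and the fold limit, and points are spread vertically for legibility. Both repressors of methylation, Dppa3 and Prdm14, lie far to the right in CH against DMSO and 2i against Fgf2/Activin and near 0 in the Esrrb experiment, where the red points are Mbd2, Zbtb4, Gadd45b, Gadd45g and Apobec2.

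In 2i against CH, 1 of the 77 genes was called higher, Prdm14 (30.0 against 7.98 CPM on average, log2 fold change 1.91, SE 0.24, adjusted p = 0.00104), and 0 lower by edgeR, with 6 lower at an unadjusted p under 0.05 and 1 called lower by DESeq2. Of all genes 0.317% were called higher and 1.67% lower. Dppa3 and Zfp57 had log2 fold changes of -0.61 and 0.39 there and were not called. The replicate block gave 2 higher and 1 lower. In Fgf2/Activin against DMSO 0 were called higher (6 at an unadjusted p under 0.05, 0 by DESeq2) and 1 lower, Gadd45g (16.4 against 46.4 CPM, -1.50, SE 0.22, adjusted p = 0.00251), a call that was lost without DMSO replicate 2, DMSO replicate 3, Fgf2/Activin replicate 1 or Fgf2/Activin replicate 2. Of all genes 0.902% were called higher and 0.347% lower. In that comparison Dppa3, Prdm14 and Zfp57 had log2 fold changes of -0.95, -0.34 and -0.59, none called.

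In 2i against Fgf2/Activin 7 of the 77 were called higher and 5 lower, beside 9.13% and 14.4% of all genes, again no more than the general rate. Prdm14 (log2 fold change 7.69, SE 0.35, adjusted p = 4.42e-08) and Dppa3 (4.05, SE 0.34, adjusted p = 3.24e-06) rose the most, and Zfp57 rose by 2.59 (SE 0.26, adjusted p = 1.11e-05). The largest falls were those of Wt1 and Cxxc4, both known as partners of Tet2, at a mean of 6.05 and 1.54 CPM in Fgf2/Activin. In the 2i libraries these had 0 to 6 and 0 to 7 counts, so the size of their falls (-6.29 and -3.57 as fitted) is poorly determined. The rest were Zbtb38, Fam208a, Nsd2 and Apobec2 (higher) and Cdca7l, Gadd45g and Gnmt (lower). The call of Gnmt was lost without 2i replicate 2, 2i replicate 3 or Fgf2/Activin replicate 1, that of Apobec2 without Fgf2/Activin replicate 2 or 3, and that of Fam208a without Fgf2/Activin replicate 1.

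In Esrrb delta/delta cells 5 of 75 network genes were called higher and 0 lower by edgeR, beside 12.8% and 3.87% of all genes, and DESeq2 gave the same counts. At an unadjusted p under 0.05, 38 were lower, a limit at which the share of all genes was not counted. At an adjusted p under 0.01 whatever the fold, 31 were lower and 13 higher, so that most of the changes were small falls (median -0.21 on the log2 scale). At that threshold 19.9% of all genes were lower. By role the lower genes were 8 of 12 of locus targeting and protection, 9 of 16 of methyl donor and 2-oxoglutarate metabolism, 5 of 9 maintenance partners, 2 of 5 TET partners, 5 of 18 of base excision repair and deamination, 1 of 4 H3K36 methyltransferases and 1 of 8 methyl-CpG binding proteins. Among them was Zfp57, which had a log2 fold change of -0.715 (SE 0.05, adjusted p = 1.36e-05). The highest rises were those of Zbtb4, a methyl-CpG binding protein (0.87 to 4.06 CPM, 2.22, SE 0.22, adjusted p = 5.65e-05), and Apobec2 (1.71 to 7.77 CPM, 2.18, SE 0.26, adjusted p = 0.000148), and Mbd2, Gadd45b and Gadd45g were called as well. Dppa3 and Prdm14 had log2 fold changes of 0.07 and -0.13 and adjusted p of 0.774 and 0.597 there. Leaving out Esrrb delta/delta replicate 1 ended the call of Gadd45g and gave 1 lower gene, Gadd45a, and leaving out Esrrb delta/delta replicate 2 or Esrrb fl/fl replicate 1 gave 1 lower gene, Shmt2.

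Lastly, the genes whose log2 CPM over the 12 E14 libraries was most like that of 5 of the enzymes were found among 10726 genes. Dnmt3b ran closest to Pou3f1, a transcription factor of the formative epiblast (Pearson r = 0.996), which averaged 150 CPM in DMSO, 183 in Fgf2/Activin, 1.99 in CH and 0.27 in 2i. Zcchc18 and Jph4 followed (r = 0.994 and 0.993). Dnmt3a ran closest to Mfap3l, Crip2 and Cobll1 (r = 0.996, 0.995 and 0.995), and Tet3 to Lsr, Rab31 and Faxc (r = 0.992, 0.992 and 0.991). Tet2 ran closest to Notch4, Vwa3b and Kank3 (r = 0.986, 0.981 and 0.979), and Dnmt3l to Khdrbs1, Iqce and Kcp (r = 0.933, 0.927 and 0.882), the lowest likeness of the 5. These values describe 12 libraries that fall into 4 cultures and share depth and replicate numbers, so they are mostly a measure of the gap between cultures.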

How the data were processed

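Gene counts of 18 RNA sequencing libraries were analysed. The authors used TopHat2 for alignment to mm10 and HTSeq, set to ignore strand, for counting, and deposited the raw counts per gene, although the library kit is directional, so reads of a gene and of an overlapping antisense gene cannot be told apart. Such exon overlaps exist for Dnmt3a, Dnmt3l, Tet2 and Tdg. Of 49671 gene identifiers 49412 matched the GRCm38 annotation used for symbols and lengths. CPM used TMM library sizes, and RPKM the summed exon length of a gene.

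Groups were taken from the labels. Counts were tested with edgeR 4.0.16 (limma 3.58.1, R 4.3.3) by the quasi-likelihood F test with Benjamini-Hochberg adjustment over all genes that passed filterByExpr, 16413 in a fit of the 12 E14 libraries and 14893 in a fit of the 6 Esrrb libraries. A call needed an adjusted p under 0.01 and a log2 fold change past 1, and intervals are 95% t intervals of the fit. On simulated counts of 2i against CH (16413 genes) 70% of genes changed by 1.5 and 97% of those changed by 3 on the log2 scale were recovered, with 0 other genes called. For the Esrrb comparison (14893 genes) the shares were 94% and 97%, with 0 others. The simulated libraries were independent, took the spread typical of genes at the same level, and had no replicate set apart. These shares therefore do not give the error rate of the real libraries.

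The labels number the replicates in each group without saying what a number stands for. Deviations from the group means correlated between libraries of the same number (0.357 to 0.825 over 18 pairs of E14 libraries, 0.383 to 0.561 over 3 pairs in the Esrrb experiment) and averaged -0.219 and -0.182 between different numbers, so by the rule used, a correlation over 0.1 in every pair, the numbers were taken to pair the libraries. Correlations between different numbers reached 0.697 and 0.433, all of those over 0.1 between replicates 2 and 3, so what the numbers separate is replicate 1 from the rest and they do not show that 2 and 3 are paired one by one. A fit with the number as a block was an alternative. The other alternatives were DESeq2 1.42.0 (test and size factors), library sizes alone, 2 other filters, glmTreat, no minimum fold, other libraries in the fit and leaving out each library. Leaving out replicate 1 of every group was chosen after the data were seen.

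The 10 genes and all lists were chosen with earlier results of these data known. Of the network list, the called genes with the 2 largest rises and the 2 largest falls were to be named in each comparison, with Dppa3, Prdm14 and Zfp57 throughout, and the remaining called genes were named after their values were seen. Like genes were the 3 with the highest Pearson correlation of log2 CPM (prior count 2) among named genes that averaged 100 counts or more. Shared sequence was sought with blastn 2.17.0 over at least 75 bases at 95% identity.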

Additional observations from a re-analysis of the deposited data

How the results depend on the processing

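Of 800 values of the 10 genes' log2 fold changes under an alternative, 770 kept their direction and their side of the thresholds, 15 passed them newly, 3 no longer passed and 12 changed sign. The sign changes all concern values that lay within their SE of 0 with all libraries. In CH against DMSO, Uhrf1 was 0.171 without replicate 1 of every group (SE 0.042, adjusted p = 0.00271), past the p threshold and within the fold limit. It was 0.077 without CH replicate 1 and 0.027 without DMSO replicate 1 (-0.131 to 0.077 on leaving out 1 library). In 2i against CH, Tdg was 0.039 without 2i replicate 2 (-0.07 to 0.039). In Fgf2/Activin against DMSO, Tet3 was 0.003 with no filter, 0.095 without DMSO replicate 2, 0.141 without DMSO replicate 3 and 0.014 without Fgf2/Activin replicate 2, Dnmt3b was 0.027, 0.102 and 0.062 without DMSO replicate 2, DMSO replicate 3 and Fgf2/Activin replicate 1, and Tet2 was -0.067 without DMSO replicate 3. On leaving out 1 library these 3 ranged from -0.241 to 0.141, -0.196 to 0.102 and -0.067 to 0.443. The causes were not tested.

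Counts of called genes moved as follows. In CH against DMSO, network genes called lower were 2 by DESeq2, 6 with no minimum fold, 3 with the replicate block, 4 without replicate 1 of every group and 1 to 2 on leaving out 1 library. With glmTreat 1 of the 10 enzymes and 2 network genes were called higher, and with no minimum fold 15 network genes were. In 2i against CH, enzymes called lower were 1 with no filter, 1 by DESeq2, 2 without replicate 1 of every group and 0 to 1 on leaving out 1 library. Network genes called higher there were 0 with at least 10 counts in every library, 2 by DESeq2, 0 with glmTreat, 2 with the block and 2 without replicate 1, and those called lower were 1 by DESeq2, 1 with the block and 1 without replicate 1. In Fgf2/Activin against DMSO, network genes called lower were 0 with glmTreat, 0 with only the 6 libraries compared and 0 to 1 on leaving out 1 library, and those called higher were 1 with the block and 1 without replicate 1. In 2i against Fgf2/Activin, network genes called lower were 3 with at least 10 counts, 3 with glmTreat and 11 with no minimum fold, and those called higher 4 and 19 with the last 2. In the Esrrb comparison, enzymes called lower were 0 with glmTreat, 6 with no minimum fold and 0 without replicate 1, and 1 was called higher with no minimum fold. Network genes called higher were 3 with glmTreat and 13 with no minimum fold, and those called lower 31 with no minimum fold, 1 in a fit of all 18 libraries, 2 without replicate 1 and 0 to 1 on leaving out 1 library. With no minimum fold, 2246 of all 16413 genes were called higher and 2504 lower in CH against DMSO. In 2i against Fgf2/Activin these were 2922 and 3271, and in the Esrrb comparison 3664 and 2957 of 14893.

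The replicate block changed no call of the 10 enzymes, and in the order of the cultures 7 neighbours differed with the pairing against 6 without it. Over all genes in 2i against CH, 52 were called higher and 274 lower, 138 and 534 with the block, 109 and 496 by DESeq2 and 28 and 72 with only the 6 libraries compared. Library sizes alone moved the median log2 fold change of all genes in the Esrrb comparison from 0.002 to 0.112. With 3 libraries a group, a change like that of Dnmt3l, whose libraries numbered 1 stand apart, could not be settled.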
